A study of Mus musculus with 9 samples.

Results

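The cGAS-STING pathway and the adaptors that carry signals from cytosolic and endosomal nucleic acids were followed in MLO-Y4 cells, mouse cells of osteocyte-like character, by RNA sequencing. The 9 members are rows of the table picked by gene name, a list drawn up with earlier results of these data known: the sensors Cgas and Tlr3, the adaptors Sting1, Mavs and Ticam1, the kinases Tbk1 and Ikbke, the transcription factor Irf3 and the nuclease Trex1. They are 9 of the 56748 genes in the count table, and 8 of them passed the filter on low counts that left 13812 genes for testing. Trex1 was the member that did not pass.

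The cells grew below primary articular chondrocytes of C57BL/6J mice seated in a transwell insert, in 3 groups of 3 libraries. The control group shared the well with chondrocytes that had not been stimulated, and the 24 h and 48 h groups shared it for those times with chondrocytes treated beforehand with IL-1β at 10 ng/mL for 6 h. How long the control co-culture lasted is not stated in the labels, so stimulation and culture time cannot be told apart. The sample labels of the 48 h libraries name the cell line MLO-Y5, MLO-Y6 and MLO-Y7, while the protocols name only MLO-Y4. By the protocols a single cell line was used, and whether the 48 h libraries came from other lines cannot be told from the labels. Nothing in the labels says that the libraries of a group came from separate cultures. The p-values therefore measure the spread between these libraries, which may be technical. Library totals were 12250628 to 15956441 counts in the control group, 14440454 to 15558585 at 24 h and 16458398 to 18515456 at 48 h. Levels are given as CPM, the count of a gene relative to its scaled library total. The osteocyte markers Mepe and Fgf23 had no count in any library, Sost had at most 1 count and Dmp1 at most 6, while Phex (14.6 CPM in control), Pdpn (212) and Gja1 (1498) were present. The chondrocyte genes Acan, Matn1, Col9a1 and Cnmd were at 0 in every library and Col2a1 had at most 7 counts, while Sox9 stood at 112 and Matn3 at 4.02 CPM in control. The leukocyte genes Adgre1, Itgam and Tyrobp were at 0, while Cd14 stood at 13.3 and Csf1r at 3.31 CPM in control. RNA was measured in bulk from many cells, so fewer cells of a kind and less RNA per cell cannot be told apart.

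cGAS, the product of Cgas, is an enzyme that binds DNA in the cytosol and makes the cyclic dinucleotide cGAMP, which is the ligand of STING in the endoplasmic reticulum. MAVS on mitochondria receives signals from the RNA helicases RIG-I and MDA5, and TRIF, the product of Ticam1, receives them from the endosomal receptor TLR3. The 3 routes meet at the kinases TBK1 and IKKε, which phosphorylate IRF3, and IRF3 in turn drives the interferon-β gene and a set of antiviral genes. TREX1 degrades cytosolic DNA and so limits the ligand of cGAS.

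The start regions of 3 members are shown to place the counts beside their regulatory sequence: Cgas and Ikbke had the largest fall and rise among the members at 48 h, and Tlr3 held the single motif match. They are RefSeq sequences of build GRCm38.p6, a different build from the GRCm39 coordinates of the count table, and run from 250 bases before to 50 bases after the gene start, 5′ to 3′ on the strand of the gene. RefSeq promoters of 8 of the 9 members were searched. Sting1 was left out of this search, so the motif counts say nothing about its promoter. Capitals mark a match to the NF-kB motif.
Cgas promoter, chr9:78443188-78443487, minus strand: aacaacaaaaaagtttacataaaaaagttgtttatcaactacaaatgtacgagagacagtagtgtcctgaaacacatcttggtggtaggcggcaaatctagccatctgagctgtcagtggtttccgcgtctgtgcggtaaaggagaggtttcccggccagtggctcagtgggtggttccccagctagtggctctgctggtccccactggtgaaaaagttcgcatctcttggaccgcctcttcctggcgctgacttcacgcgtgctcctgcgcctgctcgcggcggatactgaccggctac
Ikbke promoter, chr1:131279514-131279813, minus strand: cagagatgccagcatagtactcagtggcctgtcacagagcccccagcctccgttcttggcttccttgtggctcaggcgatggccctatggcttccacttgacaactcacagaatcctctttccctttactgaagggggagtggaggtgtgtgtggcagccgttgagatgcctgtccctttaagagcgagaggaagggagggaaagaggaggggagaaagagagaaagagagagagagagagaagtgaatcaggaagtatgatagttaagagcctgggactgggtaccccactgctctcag
Tlr3 promoter, chr8:45410331-45410630, minus strand: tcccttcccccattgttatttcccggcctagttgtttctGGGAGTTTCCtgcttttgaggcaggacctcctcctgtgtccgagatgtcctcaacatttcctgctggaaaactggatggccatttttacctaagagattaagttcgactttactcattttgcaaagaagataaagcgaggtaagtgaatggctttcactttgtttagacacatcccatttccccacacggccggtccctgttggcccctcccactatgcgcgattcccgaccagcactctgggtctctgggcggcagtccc

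Both strands of these regions were searched for the core of the element bound by interferon regulatory factors (GAAA, 2 free bases, GAAA), for TTCNNNGAA, the element bound by STAT dimers, and for the NF-kB motif. The interferon element was in 0 of the 8 members' promoters, against 3.44% of 32851 promoters of the same length. The STAT element was also in 0 of 8, against 8.3% of the promoters. NF-kB matched in 1 of 8, Tlr3, at -211 to -202 from the gene start, against 4.51% of the promoters. No match says only that these letters are not in this window.

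The members lie apart in the genome, as annotated on GRCm39 in the count table, and all 9 are protein-coding genes. Cgas (ENSMUSG00000032344) is at chr9:78337808-78350519 on the minus strand and Tlr3 (ENSMUSG00000031639) at chr8:45848702-45864117 on the minus strand. Sting1 (ENSMUSG00000024349) is on chromosome 18 from 35866732 to 35873607, Mavs (ENSMUSG00000037523) at chr2:131075983-131089945 and Ticam1 (ENSMUSG00000047123) at chr17:56576319-56583786. Tbk1 (ENSMUSG00000020115) is at chr10:121382360-121422692, Ikbke (ENSMUSG00000042349) at chr1:131182080-131207344 and Irf3 (ENSMUSG00000003184) at chr7:44647072-44652272. The last, Irf3, shares 1065 bases of its span with Bcl2l12 on the other strand.

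At 48 h, the DNA sensor Cgas fell while Sting1, Ikbke and Ticam1 rose, and Irf3 fell by a small amount. Values after ± are SD over the 3 libraries of a group (n = 3 in each), and a gene was called different when its adjusted p was under 0.05 in the quasi-likelihood test of edgeR with Benjamini-Hochberg adjustment over all 13812 genes. Of the 8 members tested, 3 were called higher than control at 48 h and 2 lower. Among all genes tested, 22% were called higher and 24.4% lower in the same comparison, so the counts called are no result about the members as a set. The libraries of the 48 h and control groups did not overlap for 6 of the 8 members, against 53.1% of all genes. The members' median log2 fold change was 0.08, beside a median over all genes of -0.002.

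At 24 h, no member was called in the edgeR test, higher or lower, against 3.25% and 2.9% of all genes. The unadjusted p was under 0.05 for 1 of the 8 members, Ikbke. DESeq2 and limma-voom also called 0 members at 24 h. The libraries of the 24 h and control groups did not overlap for 1 of the 8 members, again Ikbke, against 21.5% of all genes.

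From 24 h to 48 h, 4 members were called higher and 2 lower, against 23.7% and 25.4% of all genes, and the libraries did not overlap for 7 of the 8 members, against 59.4%. The 48 h group enters the comparisons with control and with 24 h, so their values share those libraries. The plot of CPM by library shows each member's values.

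**Figure D1:**
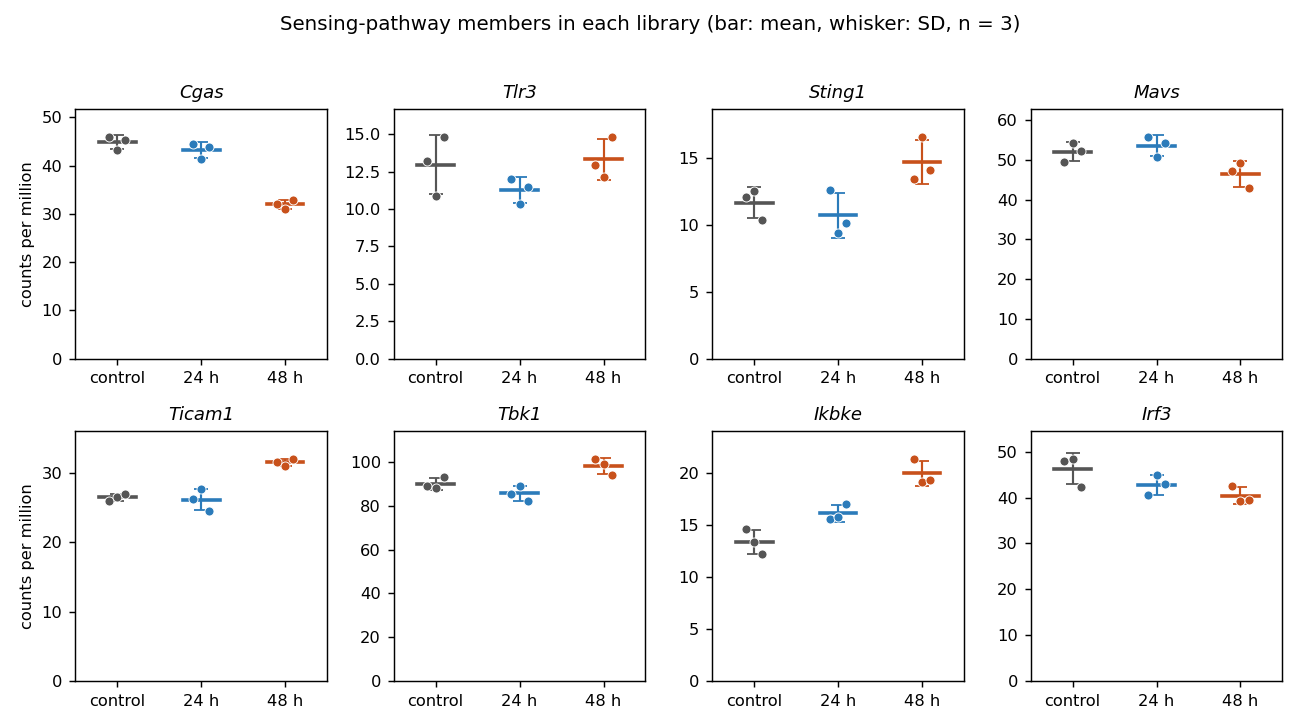
CPM (y axis, from 0) of the 8 tested members in each of the 9 libraries, by group (x axis); points are libraries, bars are means and whiskers are SD of 3 libraries. The 3 Cgas points at 48 h (31.0 to 33.0) lie below all control and 24 h points, and the Ikbke points lie higher in each later group without overlap.

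Cgas encodes the enzyme that senses cytosolic DNA. It measured 46.0, 43.3 and 45.4 CPM in the control libraries, 44.6, 41.5 and 44.0 CPM at 24 h, and 32.0, 31.0 and 33.0 CPM at 48 h. All 48 h libraries were below all others, and the control and 24 h libraries overlapped. The mean fell from 44.9 ± 1.45 CPM in control to 32.0 ± 0.974 CPM at 48 h. The log2 fold change was -0.49 (SE 0.064), a fall of 28.7%, with an adjusted p of 5.72e-06 in edgeR. Against 24 h it was -0.44 with an adjusted p of 1.74e-05, and at 24 h against control it was -0.05 with an adjusted p of 0.731. The Cgas fall was called in all 18 alternative analyses, both against control and against 24 h. Its counts rested on 518 to 733 reads per library.

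Tlr3 encodes the endosomal receptor for double-stranded RNA. It measured 13.2, 10.9 and 14.8 CPM in control, 12.0, 10.4 and 11.5 CPM at 24 h, and 13.0, 12.2 and 14.8 CPM at 48 h. The control and 48 h libraries overlapped, with control replicate 2 below all 48 h libraries. The log2 fold change at 48 h was 0.04 (SE 0.120) with an adjusted p of 0.819 in edgeR, and its sign turned without control replicate 2 (-0.05) or without 48 h replicate 3 (-0.04). At 24 h the value was -0.20 with an adjusted p of 0.418. All 48 h libraries were above all 24 h libraries, by 0.24 on the log2 scale, with an adjusted p of 0.108. With 133 to 278 counts per library, Tlr3 had the widest spread of the members among control libraries, a coefficient of variation of 15.3%.

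Sting1 encodes the adaptor that binds cGAMP. It measured 12.1, 12.5 and 10.4 CPM in control, 12.6, 9.37 and 10.2 CPM at 24 h, and 13.4, 16.6 and 14.1 CPM at 48 h. Each 48 h library was above each of the other 6, by a small margin. Its mean rose from 11.7 ± 1.13 CPM to 14.7 ± 1.67 CPM, a log2 fold change of 0.33 (SE 0.125) with an adjusted p of 0.0365 in edgeR. That call against control was kept in 13 of 18 alternatives. It was lost when control replicate 1 (adjusted p = 0.053), 48 h replicate 2 (0.177) or control replicate 3 (0.104) was left out, and in DESeq2 (0.0647). Against 24 h, the rise was 0.45 with an adjusted p of 0.00553 and was called in all 18 alternatives. At 24 h against control, the log2 fold change was -0.12 with an adjusted p of 0.681.

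Mavs encodes the mitochondrial adaptor of the RNA helicases. It measured 49.6, 54.3 and 52.4 CPM in control, 55.9, 50.8 and 54.3 CPM at 24 h, and 47.2, 49.3 and 43.0 CPM at 48 h. All 48 h libraries were below all control and 24 h libraries. The log2 fold change against control was -0.16 (SE 0.068) with an adjusted p of 0.0593 in edgeR, short of the threshold, and passed it without 48 h replicate 2 (adjusted p = 0.0408). Against 24 h, Mavs fell by 0.21 on the log2 scale with an adjusted p of 0.0168. That call was kept in 13 of 18 alternatives and lost without 24 h replicate 1 (adjusted p = 0.0802), 24 h replicate 3 (0.0623) or 48 h replicate 3 (0.115), and with upper-quartile scaling (0.0513). At 24 h against control the value was 0.04, with an adjusted p of 0.802.

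Ticam1 encodes TRIF, the adaptor of TLR3 and of one arm of TLR4. It measured 25.9, 26.5 and 26.9 CPM in control, 26.2, 27.7 and 24.6 CPM at 24 h, and 31.5, 31.0 and 32.0 CPM at 48 h. The 48 h libraries were all above the others and close to each other. The mean rose from 26.5 ± 0.504 CPM to 31.5 ± 0.524 CPM, a log2 fold change of 0.25 (SE 0.072) with an adjusted p of 0.00721 in edgeR. Against 24 h it rose by 0.27 with an adjusted p of 0.00417. Both calls were kept in all 18 alternatives. At 24 h against control the value was -0.02 with an adjusted p of 0.944, and it turned positive without control replicate 3 (0.0033) or without 24 h replicate 3 (0.030).

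Tbk1 encodes the kinase on which the 3 routes converge. It measured 88.9, 88.1 and 93.0 CPM in control, 85.6, 89.2 and 82.2 CPM at 24 h, and 101.5, 98.9 and 94.2 CPM at 48 h. The 48 h libraries lay above all others, by little in the case of 48 h replicate 3. The log2 fold change against control was 0.13 (SE 0.056) with an adjusted p of 0.0733 in edgeR. It was called with library size scaling only (adjusted p = 0.0399), with upper-quartile scaling (0.0295) and without control replicate 3 (0.031). Against 24 h, Tbk1 rose by 0.20 with an adjusted p of 0.00661, called in all 18 alternatives. At 24 h against control it was -0.07 with an adjusted p of 0.555.

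Ikbke encodes IKKε, the inducible relative of TBK1. It measured 14.6, 13.3 and 12.2 CPM in control, 15.6, 15.8 and 17.0 CPM at 24 h, and 21.4, 19.2 and 19.3 CPM at 48 h. It was the only member whose libraries were apart in all 3 comparisons, each group above the one before. The mean rose from 13.4 ± 1.19 CPM in control to 20.0 ± 1.22 CPM at 48 h. The log2 fold change was 0.57 (SE 0.095), a rise of 48.9%, with an adjusted p of 7.44e-05 in edgeR, and was called in all 18 alternatives. At 24 h the mean was 16.1 ± 0.786 CPM, a log2 fold change of 0.26 (SE 0.0991) that was not called (adjusted p = 0.138). Against 24 h, the 48 h value was higher by 0.31 with an adjusted p of 0.00964, a call lost without 48 h replicate 1 (adjusted p = 0.0559). Ikbke counts were 162 to 374 per library, and 2 noncoding genes on the other strand inside its span, Gm28913 and Gm28914, had at most 7 and 5 counts.

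Irf3 encodes the transcription factor phosphorylated by both kinases. It measured 48.0, 48.5 and 42.4 CPM in control, 40.5, 44.9 and 43.0 CPM at 24 h, and 42.6, 39.4 and 39.4 CPM at 48 h. Control replicate 3 lay within the 48 h range, so the groups overlapped. The log2 fold change at 48 h was -0.19 (SE 0.071) with an adjusted p of 0.0305 in edgeR. Of the 5 member calls at 48 h against control it was kept least often, in 9 of 18 alternatives. It was lost when any of these was left out: control replicate 1 (adjusted p = 0.139), 24 h replicate 3 (0.0527), control replicate 2 (0.109), 48 h replicate 2 (0.0978), 48 h replicate 3 (0.114). It was also lost with library size scaling only (0.0516), with upper-quartile scaling (0.0677) and in DESeq2 (0.0682). Irf3 was not called at 24 h (-0.11, adjusted p = 0.436) or between the times (-0.08, adjusted p = 0.357). Irf3 and Bcl2l12 share 145 exon bases, 4.2% of the exon bases of Irf3, and Bcl2l12 measured -0.09 with an adjusted p of 0.614 at 48 h.

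**Figure D2:**
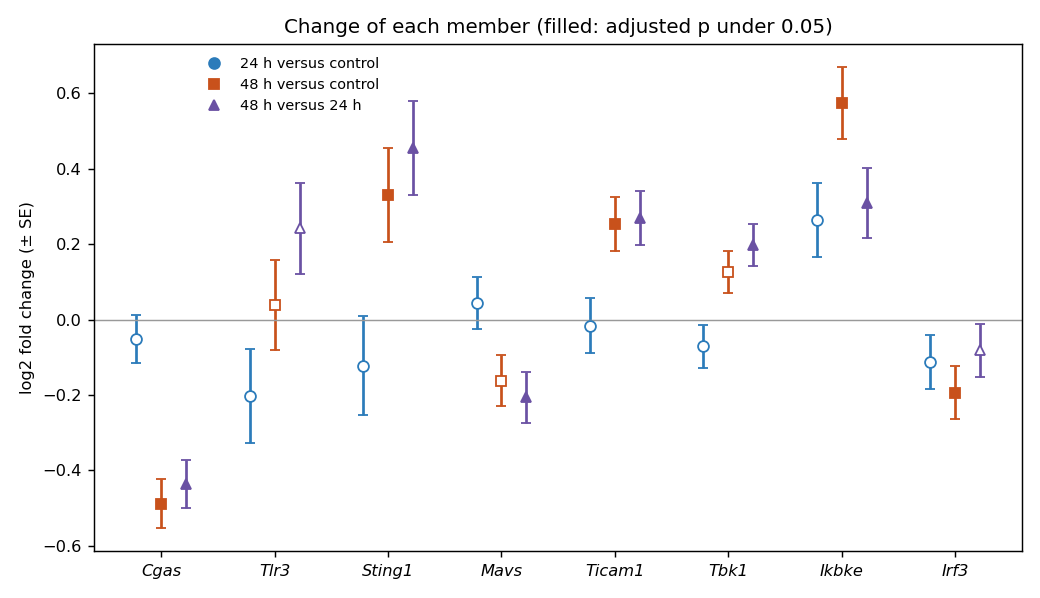
Log2 fold change (y axis) with its standard error for each tested member (x axis) in the 3 comparisons, from the edgeR fit; filled symbols have an adjusted p under 0.05 and open ones do not. All 8 symbols of 24 h versus control are open, and the values of 48 h versus control run from -0.49 for Cgas to 0.57 for Ikbke.

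Trex1, the nuclease that removes cytosolic DNA, had 0 counts in all 9 libraries and could not be tested. A level of Trex1 cannot be read from this zero. The gene (ENSMUSG00000049734), at chr9:108887001-108888802 on the minus strand, lies wholly within Atrip on the same strand, and all of its 1147 exon bases in the GENCODE M39 annotation are also exon bases of Atrip. How reads shared by genes were counted is not given in the sources used here. Among the 146 protein-coding genes whose exon bases are all shared with other genes on their strand, 116 (79.5%) had 0 counts in every library. Among the 31 with all exon bases covered by genes on the opposite strand only, 21 (67.7%) did. Among the 12764 with no shared exon base, 4963 (38.9%) did. These classes rest on GENCODE M39, which differs from the annotation of the count table. Of 56017 genes found in both, 33753 (60.3%) had the same start and end. The part of sharing in the Trex1 zero was not tested. Atrip itself, which encodes a partner of the checkpoint kinase ATR, had 276 to 389 counts per library and measured 23.1 ± 1.12 CPM in control and 19.5 ± 1.02 CPM at 48 h. Its log2 fold change was -0.25 with an adjusted p of 0.0238 in edgeR, lost without control replicate 1 (adjusted p = 0.128) or 48 h replicate 1 (0.0982) and in DESeq2 (0.0697), and any Trex1 reads within it cannot be told apart from its own.

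To compare levels between members, CPM was divided by the exon length in kilobases that the table gives for each gene. In control, Tbk1 stood highest at 23.0 CPM per kb, followed by Mavs at 15.6, Irf3 at 13.4, Cgas at 10.9 and Ticam1 at 8.84 CPM per kb. Sting1 (4.26), Tlr3 (2.49) and Ikbke (1.48 CPM per kb) stood lowest. No 2 neighbours in this order overlapped in control, and the order at 24 h was the same. At 48 h, Ticam1 (10.5 CPM per kb) stood above Cgas (7.76 CPM per kb), and Tlr3 (2.56) and Ikbke (2.21 CPM per kb) overlapped. Over the mean of all 9 libraries, 82.2% of the tested genes had a lower level per length than Tbk1, 61.6% a lower one than Cgas, 41.4% than Sting1 and 24.5% than Ikbke. The length is that of all annotated exons, so a gene with long, little-used exons appears lower, as may apply to any member. The GENCODE M39 annotation gives 11372 exon bases for Mavs and 5193 for Cgas, against 3345 and 4126 in the count table. Ticam1 has 2992 bases in both. The order, that of Cgas and Ticam1 included, therefore depends on the annotation. Levels with the GENCODE lengths were not computed.

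**Figure D3:**
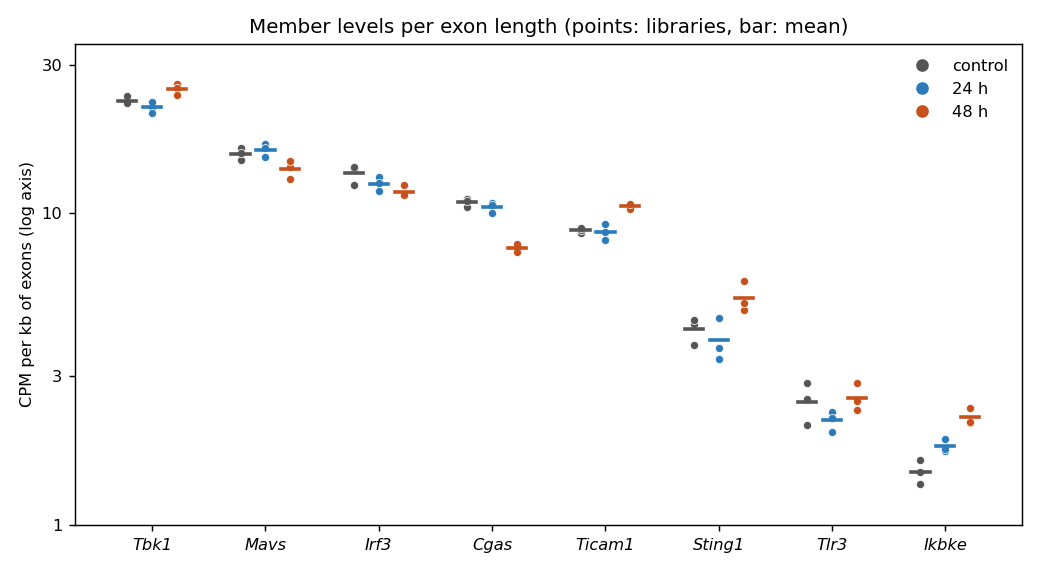
CPM per kb of exons (log y axis) of the 8 members with counts (x axis, in control order) in every library, by group; points are libraries and bars are means of 3 libraries. With the exon lengths of the count table, the 48 h points of Cgas (mean 7.76) lie under those of Ticam1 (mean 10.5). In control, Cgas lies above.

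Ratios between members that work together were then formed within each library, a choice made after the values were seen. The ratio of the adaptor Sting1 to its ligand-making enzyme Cgas, in CPM per kb, was 0.396, 0.435 and 0.345 in control, 0.426, 0.340 and 0.348 at 24 h, and 0.632, 0.805 and 0.643 at 48 h. All 48 h libraries lay above all others, with means of 0.392 ± 0.0456 in control and 0.693 ± 0.0969 at 48 h. The ratio of the inducible to the constitutive kinase, Ikbke to Tbk1, had a mean of 0.0645 ± 0.00717 in control, 0.0817 ± 0.00702 at 24 h and 0.0881 ± 0.00369 at 48 h. It was the 1 ratio of the 3 in which the 24 h libraries already lay above all control libraries. Ticam1 to Mavs had a mean of 0.568 ± 0.0203 in control, 0.546 ± 0.0552 at 24 h and 0.761 ± 0.066 at 48 h. At 48 h against control the two-sided exact permutation p was 0.1 for each of the 3 ratios, the smallest that 3 libraries against 3 allow, so no difference of a ratio could pass 0.05.

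**Figure D4:**
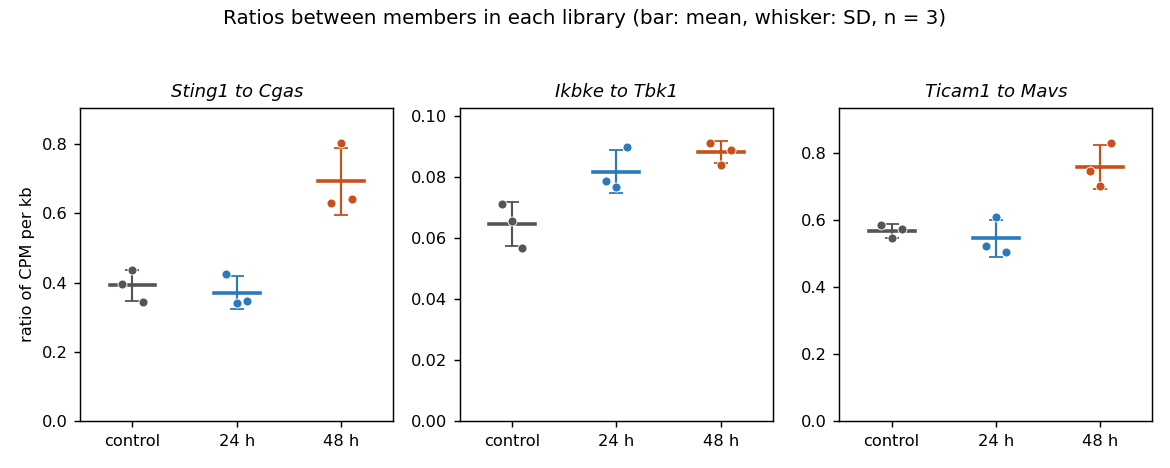
Ratio of CPM per kb (y axis, from 0) of Sting1 to Cgas, Ikbke to Tbk1 and Ticam1 to Mavs in each library, by group (x axis); points are libraries, bars are means and whiskers are SD of 3 libraries. In all 3 panels the 48 h points lie above the control points.

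For Cgas, Sting1 and Tlr3, the tested genes with the most similar course over the 9 libraries were found by Pearson correlation of log2 CPM among 10520 genes of at least 5 CPM. For Cgas these were Rpp40 (r = 0.990), Psph (0.989) and Qsox2 (0.989). For Sting1 they were Oxa1l (0.959), Smyd3 (0.941) and Peds1 (0.936), and for Tlr3 Garre1 (0.936), Thbs1 (0.930) and Wdr7 (0.924). The points share their libraries and fall into 3 groups, so the values are a description.

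The genes around the members were grouped in 11 lists by their place in the pathway. Of 131 genes in the table that are no members, 116 were tested, and at 48 h 38 (32.8%) were called higher and 23 (19.8%) lower than control, beside 22% and 24.4% of all genes. At 24 h, 4 (3.45%) were called higher and 2 (1.72%) lower, beside 3.25% and 2.9% of all genes. The same shares of all genes stand beside the counts of each list below. Some genes, Ifih1, Ifit3 and Oasl1 among them, stand in several lists, so the counts of single lists overlap. The lists' median log2 fold changes at 48 h ran from -0.16 for the MAVS partners to 0.59 for the early targets of IRF3, as drawn in the plot of list counts.

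Among the other DNA sensors, 5 of 13 tested genes were called higher and 5 lower at 48 h, with a list median of -0.07. Zbp1, a sensor of left-handed nucleic acids, rose from 22.9 ± 0.575 to 89.8 ± 4.02 CPM, a log2 fold change of 1.97 with an adjusted p of 5.13e-13. Ifi203 (1.37) and Ifi205 (0.97), of the interferon-inducible p200 family, rose as well, though that family's genes resemble each other and the counts may be split among them. At 24 h, 0 of the 13 were called in edgeR, where 3 had an unadjusted p under 0.05, and 0 in DESeq2 and limma-voom. With library size scaling only, upper-quartile scaling, a replicate block or without control replicate 1, 1 of the 13 was called lower.

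Of the 9 cytosolic RNA sensors and their ubiquitin ligases, 5 were called higher and 2 lower at 48 h, with a median of 0.17. Ddx60, a helicase cofactor, rose by 1.13 and Ifih1, which encodes MDA5, by 0.52, from 43.4 ± 2.31 to 62.5 ± 2.01 CPM. Dhx58, which encodes LGP2, rose by 0.46. Ddx58, the gene of RIG-I, measured 105 ± 3.12 CPM in control and 111 ± 6.67 CPM at 48 h, a log2 fold change of 0.08 with an adjusted p of 0.25 in edgeR.

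Of 11 partners of MAVS, 1 was called higher and 6 lower at 48 h, with a median of -0.16. Tomm70a, the import receptor that docks MAVS to its kinases, fell by 0.69 on the log2 scale, from 226 ± 13.6 to 141 ± 3.66 CPM. C1qbp, a mitochondrial matrix protein, fell by 0.69 too. The gene called higher, Ifit3 (1.03), is an interferon-stimulated gene, and at 24 h it had been lower than control by -0.58 (adjusted p = 0.00569), a call lost without control replicate 1 (adjusted p = 0.0598) or 24 h replicate 3 (0.0502).

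Of the 18 genes of STING traffic and turnover, 3 were called higher and 4 lower at 48 h, with a median of -0.04. Slc19a1, a folate carrier that also imports cyclic dinucleotides, fell by 0.67 and Ap1s1, a subunit of the AP-1 clathrin adaptor, by 0.64 on the log2 scale. Atp6v1h, a subunit of the proton pump of lysosomes, fell by 0.34. At 24 h 1 of the 18 was called higher, Surf4 (0.18, adjusted p = 0.033), a cargo receptor, and this call was kept in 8 of 18 alternatives. It was lost without any 1 of control replicate 1, 24 h replicates 1 and 3 or the 48 h libraries, at adjusted p of 0.0512 to 0.176.

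Among the endosomal Toll-like receptors and cofactors, 3 of 5 tested genes were called higher at 48 h. None was called lower there, by the unadjusted p of edgeR or under any alternative. The same holds for the interferon regulatory factors other than the member Irf3, the early targets of IRF3 and the oligoadenylate synthetases. Unc93b1, the chaperone that delivers these receptors to endosomes, rose by 0.55, and Myd88, an adaptor of most Toll-like receptors, by 0.19 with an adjusted p of 0.0398. The Myd88 call was lost without control replicate 1 (adjusted p = 0.143), 48 h replicate 1 (0.0739) or 48 h replicate 3 (0.161). It was also lost with the replicate number as a block (0.0503), in DESeq2 (0.0672) and with no filter on low counts (0.0676), and was kept in 11 of 18 alternatives. The other call, and the only one at 24 h, was Slc15a3, an endosomal transporter at 0.393 ± 0.207 CPM in control, 1.99 ± 0.538 at 24 h and 1.19 ± 0.354 at 48 h, which is named after its values were seen.

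Of 15 kinase scaffolds and ubiquitin ligases, 2 were called higher and 2 lower at 48 h (1 to 4 and 1 to 3 over the alternatives), beside 22% and 24.4% of all genes, with a median of 0.04. Tnfaip3, which encodes the deubiquitinase A20, rose by 0.82, from 12.3 ± 0.630 to 21.7 ± 1.61 CPM. Traf3, a ubiquitin ligase that connects adaptors to TBK1, fell by 0.32 on the log2 scale. At 24 h, 0 of the 15 were called in edgeR, where 3 had an unadjusted p under 0.05, and 0 in DESeq2 and limma-voom.

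The other interferon regulatory factors were called higher in 3 of 5 tested cases at 48 h, whereas the member Irf3 measured -0.19. Irf1 rose by 0.41 (adjusted p = 3.27e-05), from 103 ± 2.85 to 137 ± 9.04 CPM. Irf2 rose by 0.26 (adjusted p = 0.027) and Irf7, the amplifier of interferon expression, by 0.24 (adjusted p = 0.0296). The Irf2 call was lost without control replicate 2 (adjusted p = 0.051), 48 h replicate 1 (0.066) or 48 h replicate 2 (0.112), in DESeq2 (0.0614) and with no filter on low counts (0.0552). The Irf7 call was lost without 48 h replicate 1 (0.157), control replicate 1 (0.0781), 48 h replicate 3 (0.117) or control replicate 3 (0.0557).

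Of the 14 tested genes of nucleic acid clearance, the list that shares its function with Trex1, 3 were called higher and 3 lower at 48 h, with a median of -0.007. Enpp1, the ectoenzyme that hydrolyses extracellular cGAMP, rose by 0.66, from 248 ± 12.3 to 392 ± 9.01 CPM, with an adjusted p of 9.67e-09. Samhd1, a phosphohydrolase of deoxynucleotides, rose by 0.29. Banf1, a DNA-binding protein that keeps cGAS off chromatin, fell by 0.50 on the log2 scale.

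The genes for type I and III interferons were at or near 0. Of 20 such genes in the table, 4 had any count, no gene had more than 3 counts in a library, and none could be tested. Ifnb1, the interferon-β gene, had 3 counts in control replicate 3 and 0 counts in every other library. In the 24 h and 48 h libraries, a count of 0 allows a level of up to 0.16 to 0.212 CPM by library, for counting error only.

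Of the 9 interferon receptor and JAK-STAT genes, 5 were called higher and 1 lower at 48 h, with a median of 0.31. Stat2 rose from 87.8 ± 5.17 to 210 ± 5.97 CPM, a log2 fold change of 1.26 with an adjusted p of 7.81e-12. Ifngr1, a chain of the interferon-γ receptor, rose by 0.45. The gene called lower was Ifngr2, the other chain of that receptor (-0.20, adjusted p = 0.00874 in edgeR), named after its values were seen. Over the alternatives, 0 to 1 genes of the list were called lower. Ifnar2, a chain of the receptor for type I interferons, was higher at both times, by 0.47 at 24 h and 0.49 at 48 h.

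The early targets of IRF3 are 10 tested genes that it can switch on without interferon. Of them, 8 were called higher at 48 h, beside 22% of all genes, with a median of 0.59. Rsad2, which encodes viperin, rose from 4.95 ± 1.41 to 21.1 ± 0.915 CPM, a log2 fold change of 2.07 with an adjusted p of 3.64e-09. Ifit1, an inhibitor of viral translation, rose by 1.52 and the chemokine gene Ccl5 by 1.47. At 24 h Ccl5 was called higher (0.60) and Ifit3 lower (-0.58). Many of these genes also respond to other factors, and which factor acted on them was not tested.

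Of the 10 oligoadenylate synthetases and RNA-activated effectors, 2 were called higher at 48 h against control, with a median of 0.26. Oas2 rose by 1.30 and Oasl2 by 1.03, both from families of similar genes among which reads may be split. Against 24 h, 6 of the 10 were called higher and 0 lower (2 to 6 and 0 to 1 over the alternatives), beside 23.7% and 25.4% of all genes. The members' own range at 48 h was -0.49 to 0.57. Most listed genes named above were picked for the largest changes of their lists, so their sizes are no comparison with the members.

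Marker levels moved beside these results. The summed level of the 10 osteocyte and osteoblast markers was 4459 to 4680 CPM in control, 4571 to 4692 CPM at 24 h and 5343 to 5424 CPM at 48 h. In this sum Gja1 rose from 1498 ± 81.3 to 2413 ± 24.0 CPM at 48 h, while Col1a1 fell from 1273 ± 47.5 to 1159 ± 18.4 CPM. Sparc (750.6 in control, 724.6 at 48 h) and Bgn (819.5 and 835.9 CPM) were not called at 48 h. Phex and Pdpn were called higher. The 10 chondrocyte markers, nearly all of it Sox9, summed to 111.5 to 123.2 CPM in control, 103.6 to 111.7 CPM at 24 h and 124.1 to 130 CPM at 48 h. Among them, Sox9 (0.14) and Comp (1.445, at most 21 counts) were called higher at 48 h against control and Matn3 (-1.25) lower. The 8 leukocyte markers, mostly Cd14, summed to 18.6 to 20.4 CPM in control, 24.1 to 26.3 CPM at 24 h and 20.9 to 24.2 CPM at 48 h, with Ptprc at no more than 1 count. Cd14 was called higher than control at 24 h (0.62) and 48 h (0.27), and Csf1r lower at 24 h (-0.84). The 4 endothelial markers summed to at most 0.521 CPM. The part of these shifts in the member values was not tested.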

How the data were processed

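RNA of 9 samples, MLO-Y4 cells by the protocols, was measured by paired-end sequencing of directional libraries. The authors deposited 1 table of raw read counts per gene, aligned with HISAT2 to GRCm39 and counted with featureCounts, version 2.06 in the submitters' processing notes, where other sources give another version, another sequencer and also name RSEM. Strand, multi-mapping and overlap settings are not given in the sources used here. The table had 0 columns of other samples. Its gene length column gave the exon length for CPM per kb.

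Counts were analysed with edgeR 4.0.16 (R 4.3.3): filterByExpr with a minimum count of 10 kept 13812 genes with at least 99.87% of each library's counts. TMM factors scaled the library sizes, and 1 quasi-likelihood fit over all 9 libraries, with group as its only term, left 6 residual degrees of freedom. The SE of a log2 fold change is its size divided by the square root of F. The fit was also run on simulated data with planted changes larger than any member's, so that run says nothing about changes of the members' size. Replicate libraries differed by more than sampling noise (chi-square per degree of freedom 2.31 to 8.4). The first principal component, 51.7% of the variance, set the 48 h libraries apart. DESeq2 1.42.0, limma-voom (limma 3.58.1), other scalings and left-out libraries served as alternatives.

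The members, the 11 pathway lists, the interferon list and the 4 marker lists were chosen with earlier results of these data known. Up to 3 genes per list and comparison with control were named, those with the largest change among called genes of at least 5 CPM in either group. Ifnb1, Ddx58, Ifih1, Irf7 and Irf1 could be named in any case, and 1 further gene of that rule is not reported here. Of the listed genes, 1 was not matched in the table. Intervals and limits from counts cover counting error only.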

Additional observations from a re-analysis of the deposited data

Results flagged for a closer look

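In 6 of the 8 tested members the change from control differed between the times, by the edgeR test of 48 h against 24 h, which is the test of that difference because both times share the control libraries. Cgas was lower at 48 h than at 24 h by -0.4361 (adjusted p = 1.74e-05) and Mavs by -0.2063 (adjusted p = 0.0168). Sting1 was higher by 0.4547 (adjusted p = 0.00553), Ikbke by 0.3101 (adjusted p = 0.00964), Ticam1 by 0.2697 (adjusted p = 0.00417) and Tbk1 by 0.1968 (adjusted p = 0.00661). Of all genes tested, 23.7% were higher and 25.4% lower between these times. Groups of 3 libraries are too small for a test of single outlying libraries.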

How the results depend on the processing

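Over 18 alternatives and 3 comparisons, 404 of 432 recomputed member values kept their direction and their side of the threshold, 20 lost a call, 4 gained one and 4 turned sign. The turned values were uncalled and near 0: Tlr3 at 48 h against control (-0.05449 without control replicate 2, -0.04375 without 48 h replicate 3, up to 0.1541 without control replicate 3) and Ticam1 at 24 h (0.003259 without control replicate 3, 0.02971 without 24 h replicate 3, down to -0.05556 without 24 h replicate 2). Members called lower at 48 h against control numbered 1, not 2, with library size scaling only, upper-quartile scaling, DESeq2 and an adjusted p under 0.01, and against 24 h 1 with upper-quartile scaling and at 0.01. At 24 h, all genes called higher numbered 759 with no filter and 259 at 0.01, and genes called lower 254 with only the 2 groups fitted and 205 at 0.01. Leaving out 1 library gave 2 to 3 members higher and 1 to 2 lower at 48 h against control, 3 to 4 higher and 1 to 2 lower against 24 h, and 0 at 24 h. Over all genes it gave 2616 to 3200 higher and 2839 to 3239 lower at 48 h, 295 to 873 and 222 to 602 at 24 h, and 2892 to 3596 and 2991 to 3640 between the times. The cause of these moves was not tested. Replicate numbers did not pair the samples (correlation of deviations -0.049 to 0.077 for equal numbers, -0.097 to 0.095 for others), and a replicate block changed no member call, though Myd88 lost its call at an adjusted p of 0.0503 (Cgas -0.4875 at 48 h), calling 538 genes higher and 420 lower at 24 h. Bcl2l12 at 48 h ranged from -0.1982 to 0.04961, positive without control replicate 3. Scaling moved the median of all genes by at most 0.0392, with upper-quartile scaling at 48 h against 24 h, where the Mavs call was lost. At 48 h against control the shifts were 0.0207 with library size scaling only and 0.0289 with upper-quartile scaling. Under both, the Irf3 call was lost and Tbk1 gained one. The part of the shifts in these moves was not tested.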
